A study of Mus musculus with 16 samples.

Results

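Glucose uptake and glycolysis were represented by 10 genes chosen by name from the pathway, with earlier results of these data known. All 10 are among the 55423 rows of the count table, and all passed the filter on low counts that left 21085 genes. They are the transporter genes Slc2a1 and Slc2a3, the hexokinase genes Hk2 and Hk3, the enzyme genes Pfkl, Pgk1, Eno1, Pkm and Ldha, and Hif1a, which encodes a transcription factor. Their RNA was measured in sub-capsular sinus macrophages (SSMs) and medullary sinus macrophages (MSMs) of lymph nodes. All mice were C57B/6 males carrying MOC2, a chemically induced squamous cell carcinoma line, implanted in the skin of the flank 2 weeks earlier, so no library came from a mouse without a tumor. Each library held nodes of 2 mice, with 2 tumor-draining nodes (tdLN) or with 6 non-draining nodes (ndLN) taken at inguinal, axillary and brachial sites of the opposite flank, and node site and tumor drainage therefore cannot be told apart. The age of the mice is not given in the sources used here. Cells of both subsets were gated as live, CD45+, CD11b+ and CD169+ and as negative for CD3, B220 and Ly6G. SSMs were then taken as CD11c- with low side scatter and MSMs as CD11c+ with high side scatter. There were 8 libraries, 2 in each of the 4 groups called here ndLN SSMs, tdLN SSMs, ndLN MSMs and tdLN MSMs, numbered here by the pool of mice.

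Glycolysis splits glucose into pyruvate in the cytosol and yields a little ATP without oxygen. Glucose enters through facilitative transporters, of which GLUT1 (Slc2a1) and GLUT3 (Slc2a3) serve most leukocytes, and is trapped by phosphorylation by a hexokinase. Phosphofructokinase commits the sugar to the pathway, later steps make ATP, and lactate dehydrogenase turns pyruvate into lactate while restoring NAD+. HIF-1α, the product of Hif1a, is stabilized when oxygen is low or when macrophages are activated, and it binds the core letters ACGTG or GCGTG in the promoters of many genes of this pathway. Its protein level is set mainly after translation, which RNA counts do not measure.

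The libraries held between 42972328 and 48130352 counted reads. A mean normalized count over all libraries, scaled to 1 lane of sequencing, of more than 100 was met by 9985 genes and by all 10 members. Summed levels of marker genes usually read for other cell types differed between the groups, and whether this RNA came from other cells or from the sorted macrophages was not tested. The summed level of 10 sinus macrophage markers was 5969 to 9169 CPM (counts scaled to a common library total) in ndLN SSMs, 15439 to 22532 in tdLN SSMs and 4687 to 5324 in the 4 MSM libraries. Siglec1, which encodes CD169, was between 8.47 and 15.1 CPM in ndLN SSMs and at 59.2 and above in tdLN SSMs. It was at 5.96 CPM or less in every MSM library. Not all 10 macrophage genes shared this direction. In ndLN, 4 had a call on the SSM side and 2 on the MSM side. The latter were Mertk and Cd68, with log2 differences of -3.49 and -1.06. In tdLN, 5 had a call on the SSM side and 0 on the MSM side. The summed level of 10 innate-like lymphoid markers was 1455 to 1814 CPM in ndLN SSMs, 606 to 688 in tdLN SSMs and 34.3 to 78.4 in MSMs, with Il17a at or under 3 counts in both MSM libraries from tdLN. For 10 mast cell and basophil markers the same sums were 2131 to 3138, 410 to 845 and 312 to 692 CPM, with Fcer1a and Ms4a2 at or under 3 counts in every MSM library. The 8 dendritic cell markers summed to at most 2144 CPM in SSMs and to at least 3932 CPM in MSMs. In ndLN 6 of them were called lower in SSMs, by log2 differences from -7.00 (Clec9a) to -3.32 (Cd209a). Ccr7 (-0.12) and Zbtb46 (-0.59) were not called there. In tdLN 7 were called lower in SSMs, and 0 were called higher in either node. In bulk RNA, fewer cells of a type and less RNA per cell cannot be told apart.

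The promoters of the 4 members that differed between the subsets are shown because those genes were called in at least 1 comparison and because the HIF core letters can be read in them. Each is the stretch of 250 bases before the first start site listed by RefSeq on GRCm38.p6, written 5′ to 3′ along the gene, with every ACGTG or its reverse complement, and every GCGTG or its reverse complement, in capitals.
Slc2a1 (chr4:119108495-119108744, plus strand): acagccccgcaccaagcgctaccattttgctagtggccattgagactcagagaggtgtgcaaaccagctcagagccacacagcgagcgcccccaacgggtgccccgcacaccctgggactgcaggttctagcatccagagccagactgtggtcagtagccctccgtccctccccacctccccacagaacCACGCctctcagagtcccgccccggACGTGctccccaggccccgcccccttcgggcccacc
Hk2 (chr6:82774455-82774704, minus strand): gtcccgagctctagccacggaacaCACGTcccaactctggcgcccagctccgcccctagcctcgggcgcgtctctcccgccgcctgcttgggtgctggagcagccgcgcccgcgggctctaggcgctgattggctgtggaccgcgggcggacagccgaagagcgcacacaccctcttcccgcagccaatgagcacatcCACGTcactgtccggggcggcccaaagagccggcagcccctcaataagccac
Eno1 (chr4:150236458-150236707, plus strand): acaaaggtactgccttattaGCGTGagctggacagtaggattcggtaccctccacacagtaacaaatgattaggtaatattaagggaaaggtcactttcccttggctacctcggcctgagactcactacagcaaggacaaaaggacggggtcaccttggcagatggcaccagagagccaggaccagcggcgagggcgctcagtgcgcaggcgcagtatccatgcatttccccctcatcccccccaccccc
Hif1a (chr12:73907617-73907866, plus strand): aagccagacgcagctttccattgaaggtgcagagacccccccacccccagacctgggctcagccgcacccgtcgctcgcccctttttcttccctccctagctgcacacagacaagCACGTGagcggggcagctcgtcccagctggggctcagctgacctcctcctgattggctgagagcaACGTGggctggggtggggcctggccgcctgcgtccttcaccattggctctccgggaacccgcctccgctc
In GENCODE M21 on GRCm38 these genes are Slc2a1 (ENSMUSG00000028645, chr4:119108711-119137983), Hk2 (ENSMUSG00000000628, chr6:82725025-82774454), Eno1 (ENSMUSG00000063524, chr4:150236721-150248879) and Hif1a (ENSMUSG00000021109, chr12:73901375-73947530). The RefSeq table matched 9 of the 10 members, and Slc2a3 was not matched. Within windows of 300 bases, from 250 before to 50 after each listed start, all 9 held a core in at least 1 window, as did 46.7% of the 27025 genes in the table. The cores contain a CpG, and the median number of CpG per window was 24 for the members and 7 for all genes. In Hk2 the cores began 226 and 52 bases before the start, and in Slc2a1 61 and 36 bases before it. In Hif1a, 2 of the 3 matches overlap in CACGTG, which is also the E-box read by other factors. A match describes letters in a window and was not tested as a binding site.

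In ndLN, 2 of the 10 members were called between the subsets, Hk2 and Eno1, and both were higher in SSMs. A gene was called when edgeR's quasi-likelihood test gave an adjusted p under 0.01 and its mean normalized count was over 100, and 25.5% of the 9985 genes over that cut-off were called in the same comparison. In tdLN, Slc2a1, Eno1 and Hif1a were called, all 3 higher in SSMs, against 18.3% of genes. Between tdLN and ndLN, Hk2 was called in SSMs, where it was lower in tdLN, against 6.4% of genes. No member was called between the nodes in MSMs, where 0.0501% of genes were called, and none had a called interaction of subset and node, where 0.0801% were. With only 10 members, these counts lie near the share called among all genes. The same edgeR test gave an unadjusted p under 0.05 for 5 members in MSMs, where 11.9% of all genes tested had one, and for 3 members in the interaction, where 12.3% had one. Both shares are over all 21085 genes tested, which include genes under the mean count cut-off that all 10 members passed. They are therefore not a like base for the members. A DESeq2 Wald test called 1 member and 503 genes in MSMs, and 2 members and 706 genes for the interaction. Over both nodes, the 4 SSM libraries did not overlap the 4 MSM libraries for 6 members, against 39.6% of genes. The 4 tdLN libraries did not overlap the 4 ndLN libraries for 1 member, Slc2a3, against 8.45% of genes. Where overlap is given below within 1 node or 1 subset, only 2 libraries are set against 2. No share of all genes stands beside it, and such a separation was not tested.

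**Figure D1:**
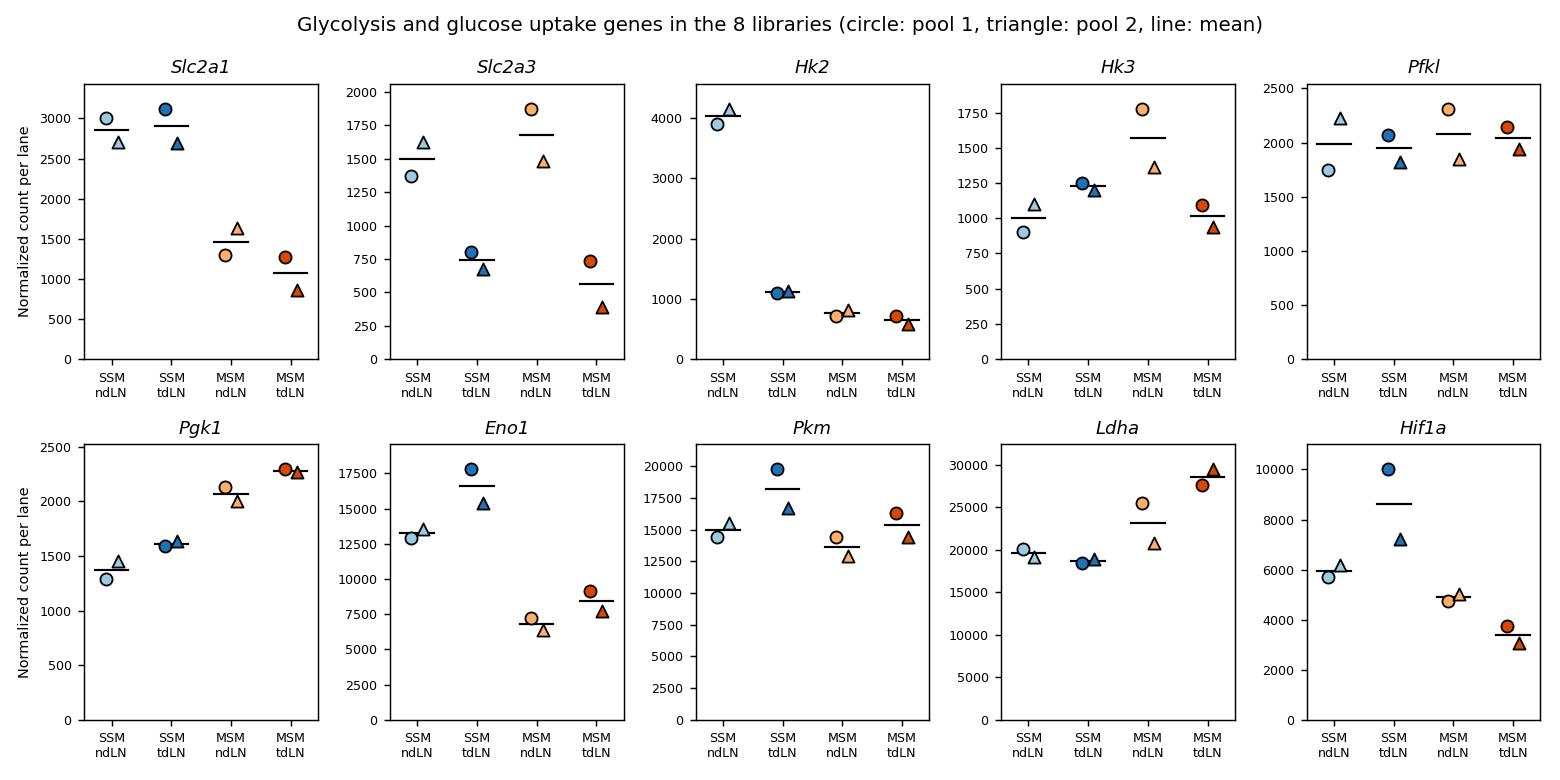
Normalized counts per lane (y axis, from 0) of the 10 members in the 4 groups (x axis). Circles are pool 1, triangles pool 2 and lines the mean of the 2 libraries. Hk2 stood at 3898 and 4156 in ndLN SSMs and at no more than 1132 in every other library, while Slc2a1, Eno1 and Hif1a were higher in every SSM library than in every MSM library.

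Slc2a1, the gene of the widely expressed transporter GLUT1, had 3006 and 2703 normalized counts in ndLN SSMs and 3122 and 2693 in tdLN SSMs. In MSMs it had 1293 and 1633 in ndLN and 1277 and 865 in tdLN. Every SSM library was above every MSM library, and the 2 nodes overlapped within SSMs. The difference of SSMs from MSMs was 1.45 ± 0.21 (log2, SE, n = 2 libraries a group) in tdLN, a 2.73-fold higher level with an adjusted p of 0.0031 by edgeR. Each SE of a log2 difference was derived from edgeR's F statistic, with the spread estimated over all 8 libraries. In ndLN the difference was 0.95 ± 0.21 with an adjusted p of 0.0145, which missed the threshold of 0.01. In ndLN the call was made on lane 3 alone, by filterByExpr, by DESeq2 and without the pool term. Between the nodes the difference was 0.03 ± 0.21 in SSMs and -0.47 ± 0.21 in MSMs, and neither was called (adjusted p 0.977 and 0.443).

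Slc2a3, the gene of the high-affinity transporter GLUT3, was lower in every tdLN library than in every ndLN library. It had 1372 and 1625 normalized counts in ndLN SSMs and 801 and 677 in tdLN SSMs. In MSMs it had 1876 and 1487 in ndLN and 735 and 393 in tdLN. The 2 nodes did not overlap in either subset, and pool 2 of tdLN MSMs was the lowest library. The log2 difference of tdLN from ndLN was -1.04 ± 0.25 in SSMs (edgeR adjusted p 0.0446) and -1.60 ± 0.26 in MSMs (adjusted p 0.0597), and neither passed 0.01. DESeq2 called both, with adjusted p of 0.00112 and 1.65e-06. The subsets overlapped, with differences of -0.14 ± 0.25 in ndLN and 0.42 ± 0.26 in tdLN.

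Hk2 had the widest range of the members. Hexokinase 2 is the inducible form that rises in activated and proliferating cells. It had 3898 and 4156 normalized counts in ndLN SSMs, 1090 and 1132 in tdLN SSMs, 715 and 812 in ndLN MSMs and 709 and 586 in tdLN MSMs. Both libraries of ndLN SSMs were far above the other 6, and tdLN SSMs were still above all MSMs. SSMs exceeded MSMs by 2.40 ± 0.17 (log2) in ndLN, which is 5.27-fold, with an adjusted p of 7.87e-05 by edgeR, and this call was made whichever library was left out. In tdLN the difference was 0.78 ± 0.17 with an adjusted p of 0.0176, and 0.00915 without the pool term. Within SSMs, Hk2 was lower in tdLN by a log2 difference of -1.86 ± 0.16, which is 3.62-fold, with an adjusted p of 0.00177. That call was lost without pool 2 of ndLN SSMs (adjusted p 0.0176) and without either SSM library from tdLN (0.0426 and 0.0424). The node difference in SSMs minus that in MSMs was -1.62 ± 0.23 with an adjusted p of 0.0318, and in MSMs the node difference was -0.24 ± 0.17. The innate-like lymphoid, mast cell and basophil sums given above were also highest in ndLN SSMs, and so were those of 8 T cell markers, at 1990 to 2203 CPM there, 860 to 981 in tdLN SSMs and no more than 797 in the MSM libraries. In ndLN 7 of the T cell markers were called on the SSM side and 1 on the MSM side, and within SSMs 1 was called lower in tdLN. Of the 10 innate-like lymphoid markers, 10 were called higher in SSMs than in MSMs in ndLN and 5 were called lower in tdLN than in ndLN within SSMs. Of the 10 mast cell and basophil markers, 7 were called higher in SSMs in ndLN, and within SSMs 2 were called lower and 1 higher in tdLN. The part of these genes in the Hk2 difference was not tested.

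Hk3, the myeloid hexokinase gene, had 901 and 1104 normalized counts in ndLN SSMs and 1250 and 1203 in tdLN SSMs. In MSMs it had 1779 and 1363 in ndLN and 1093 and 941 in tdLN. It was not called in any comparison. Its difference of SSMs from MSMs was -0.64 ± 0.19 in ndLN and 0.27 ± 0.19 in tdLN, and the interaction of 0.91 ± 0.27 had an adjusted p of 0.205. Pfkl, the liver-type phosphofructokinase gene, lay between 1742 and 2313 normalized counts in all 8 libraries. Its log2 differences ran from -0.07 to -0.02 over the 4 comparisons with standard errors of 0.19, and its groups overlapped throughout.

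The enzymes of the lower pathway did not move together. Eno1, the gene of the ubiquitous enolase, had 12946 and 13527 normalized counts in ndLN SSMs, 17786 and 15383 in tdLN SSMs, 7255 and 6356 in ndLN MSMs and 9122 and 7744 in tdLN MSMs. Every SSM library was above every MSM library in both nodes. The log2 difference was 0.97 ± 0.12 in ndLN and 0.98 ± 0.12 in tdLN, which are 1.95-fold and 1.97-fold, with adjusted p of 0.00118 and 0.00157 by edgeR. The interaction was 0.01 ± 0.17. In ndLN the call was lost without either MSM library from ndLN, with adjusted p of 0.0154 and 0.0183. Between the nodes Eno1 differed by 0.32 ± 0.12 in SSMs and 0.31 ± 0.12 in MSMs, and neither passed (adjusted p 0.168 and 0.377).

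Pgk1 and Ldha lay the other way. Pgk1 encodes the first ATP-producing enzyme of the pathway and had 1294 and 1454 normalized counts in ndLN SSMs, 1590 and 1636 in tdLN SSMs, 2132 and 2001 in ndLN MSMs and 2294 and 2269 in tdLN MSMs. The SSM libraries all lay under the MSM libraries, by log2 differences of -0.59 ± 0.14 in ndLN and -0.50 ± 0.14 in tdLN, which edgeR did not call (adjusted p 0.0214 and 0.0519) and DESeq2 did (0.0021 and 0.0084). Ldha, the gene of the lactate dehydrogenase subunit that favors lactate production, had 20132 and 19205 in ndLN SSMs, 18474 and 18967 in tdLN SSMs, 25537 and 20823 in ndLN MSMs and 27623 and 29471 in tdLN MSMs. The subsets did not overlap, and the gap was wider in tdLN, where the log2 difference was -0.61 ± 0.12 (adjusted p 0.0138, and 0.00783 without the pool term), than in ndLN, where it was -0.23 ± 0.12 (adjusted p 0.223). That widening was not called, with an interaction of -0.37 ± 0.17 and an adjusted p of 0.462. The dendritic cell sums were also higher in MSMs, and 5 of 7 proliferation markers were called lower in SSMs in each node. Their part in these differences was not tested. Pkm, the gene of the muscle-type pyruvate kinase that makes pyruvate, lay between 12916 and 19750 normalized counts, and its subsets overlapped over both nodes together. Within each node both SSM libraries were above both MSM libraries. Its differences were between 0.14 ± 0.12 and 0.28 ± 0.12 over the 4 comparisons, and none was called.

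Hif1a diverged between the subsets in tdLN. It had 5703 and 6185 normalized counts in ndLN SSMs and 4734 and 5044 in ndLN MSMs, and 10003 and 7237 in SSMs against 3760 and 3048 in tdLN MSMs. The subsets did not overlap in either node, and pool 1 of tdLN SSMs was the highest library. SSMs exceeded MSMs by 1.34 ± 0.18 (log2) in tdLN, which is 2.53-fold, with an edgeR adjusted p of 0.00192. In ndLN the difference was 0.28 ± 0.17 with an adjusted p of 0.289. The node difference was 0.52 ± 0.17 in SSMs and -0.53 ± 0.17 in MSMs, neither of them called (adjusted p 0.116 and 0.290), and their difference of 1.05 ± 0.25 had an adjusted p of 0.117 by edgeR. A DESeq2 Wald test called that interaction, with an adjusted p of 0.00689. The sinus macrophage sums were highest in tdLN SSMs as well, and 6 of those 10 markers were called higher in tdLN than in ndLN within SSMs. The sums of 5 monocyte markers were highest there too, at 4227 to 4355 CPM beside 1119 to 2195 in ndLN SSMs and no more than 494 in MSMs, with 5 of 5 called higher in SSMs in tdLN and 1 called higher in tdLN within SSMs. Neutrophil sums over 8 markers were 338 to 793 CPM in tdLN SSMs, 106 to 326 in ndLN SSMs and no more than 30.6 in MSMs. Of these 8, 4 were called higher in SSMs in tdLN, and within SSMs 1 was called higher and 1 lower in tdLN. The part of the macrophage, monocyte and neutrophil markers in the Hif1a values was not tested. The 3 calls in tdLN, of Slc2a1, Eno1 and Hif1a, were all lost when any 1 of the 4 tdLN libraries was left out, with adjusted p between 0.0104 and 0.0453, while their log2 differences stayed between 0.92 and 1.74.

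**Figure D2:**
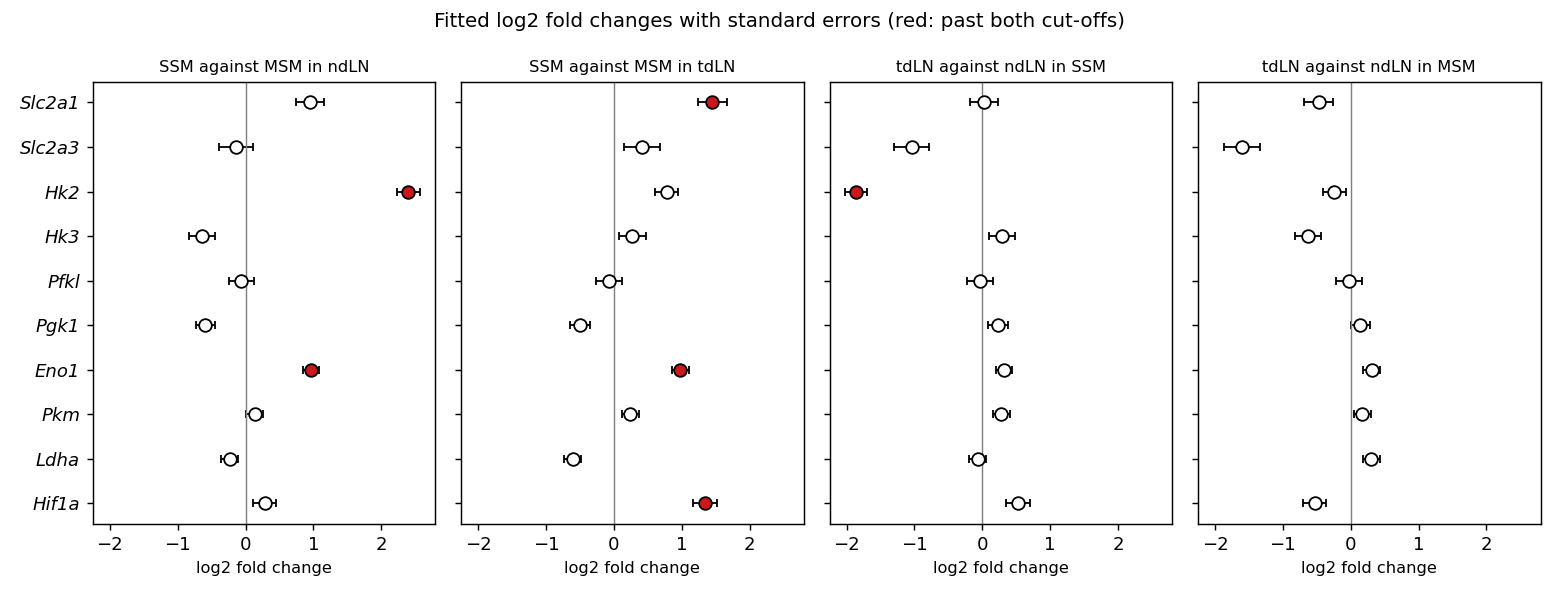
Fitted log2 fold changes (x axis) of the 10 members (y axis) in 4 comparisons, with bars for the standard error. That error is the absolute log2 fold change divided by the square root of edgeR's F statistic. Red points passed both cut-offs. SSMs exceeded MSMs most for Hk2 in ndLN (2.40) and for Slc2a1 (1.45) and Hif1a (1.34) in tdLN, and only Hk2 passed between the nodes (-1.86 in SSMs).

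Levels were compared between genes as CPM per kb of exon sequence, counting every base in any annotated exon of a gene. This length can exceed that of the transcripts present, so ranks and shares between genes depend on the annotation. Ldha was the most abundant member in all 4 groups, at 263 ± 8.77 (SD, n = 2) in ndLN SSMs, 251 ± 4.72 in tdLN SSMs, 310 ± 44.6 in ndLN MSMs and 382 ± 17.5 in tdLN MSMs. Pkm came next, between 121 ± 9.25 and 162 ± 19.1, followed by Eno1, between 56.1 ± 5.24 and 137 ± 14.0. In tdLN SSMs, Pkm had 19750 and 16699 normalized counts and Eno1 17786 and 15383, with less exon sequence in Pkm (5001 beside 5379 bases). Pkm therefore ranked above Eno1 in each of these 2 libraries. Hif1a followed in SSMs, at 44.7 ± 2.57 in ndLN and 64.8 ± 14.7 in tdLN, whereas in MSMs Pgk1 came after Eno1, at 40.8 ± 1.83 and 45.1 ± 0.344. Slc2a1 was at 36.1 ± 2.71 and 36.8 ± 3.83 in SSMs and 18.5 ± 3.04 and 13.5 ± 3.69 in MSMs. Hk2 was at 29.9 ± 1.36 in ndLN SSMs, close to Pgk1 at 27.2 ± 2.23 there, and between 4.81 ± 0.649 and 8.25 ± 0.220 in the other groups. Slc2a3 was the lowest member in 3 of the 4 groups, with 3.45 ± 1.48 in tdLN MSMs, and in ndLN MSMs Hk2 was the lowest, at 5.67 ± 0.51.

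The make-up of each enzyme family was read from the same values per length. Hk2 made up 53.5% and 51.6% of the RNA of the 3 hexokinase genes in ndLN SSMs, 22.2% and 23.4% in tdLN SSMs and between 15.3% and 20.8% in MSMs. Hk3 made up 61.6% and 56.6% in ndLN MSMs and only 20.1% and 22.2% in ndLN SSMs. Hk1, the housekeeping form, lay between 22.6% and 36.4% in all libraries. By these values per length, Hk2 led the family in ndLN SSMs and Hk3 in the other 3 groups. In mean normalized counts without length, Hk1 exceeded Hk3 in tdLN SSMs (2532 beside 1227) and in tdLN MSMs (1586 beside 1017). Pfkl was a larger part of phosphofructokinase RNA in SSMs (29.0% to 37.4%) than in MSMs (19.0% to 23.1%), where Pfkp, the platelet-type gene, made up 74.3% to 79.4%. Eno1 made up 73.7% to 84.6% of enolase RNA in SSMs and 47.9% to 58.9% in MSMs. In normalized counts without length, Eno1 had 7255 and 6356 in ndLN MSMs beside 1552 and 1683 for Eno3. The size of its share therefore depends on the exon lengths used. Ldhb, whose subunit favors the use of lactate, made up 6.21% and 7.86% of lactate dehydrogenase RNA in ndLN SSMs, 2.96% and 2.59% in tdLN SSMs and no more than 1.45% in MSMs.

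**Figure D3:**
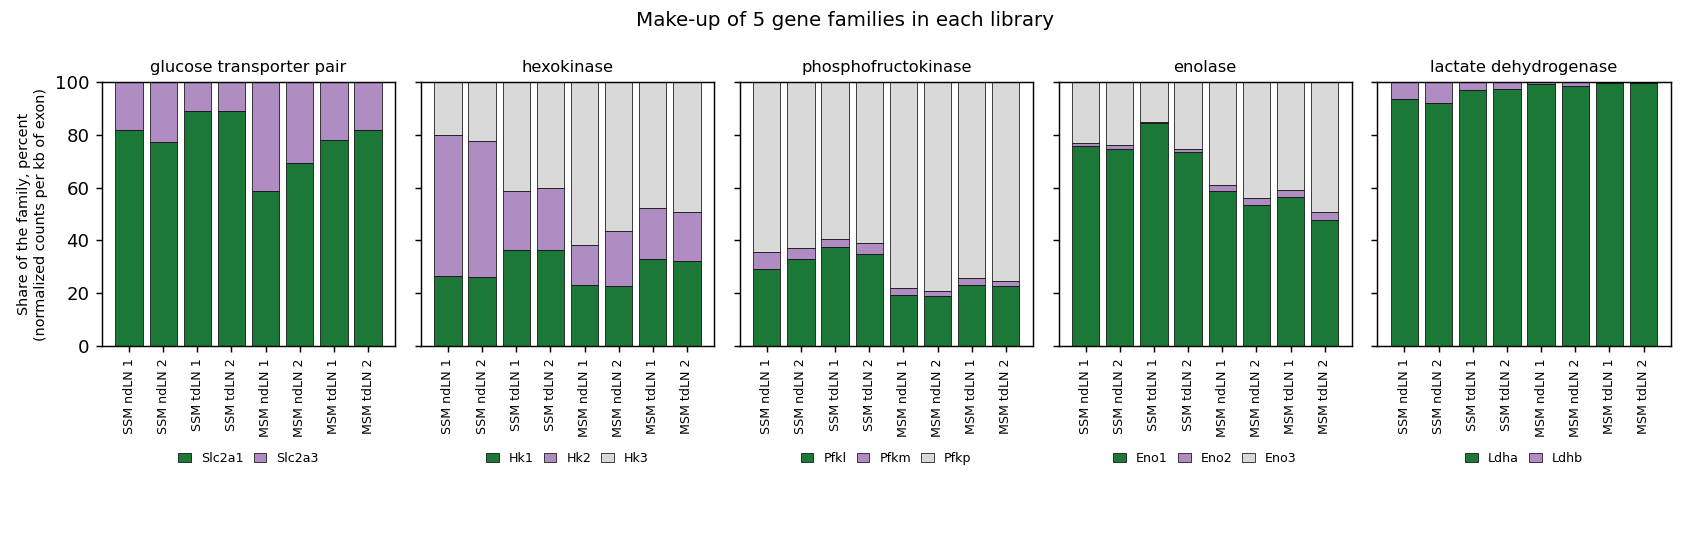
Share (y axis, percent of normalized counts per kb of exon) of each gene within 5 families in each of the 8 libraries (x axis). Hk2 made up 53.5% and 51.6% in ndLN SSMs and no more than 23.4% elsewhere, and the parts of Pfkl, Eno1 and Ldhb were larger in every SSM library than in every MSM library.

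Ratios of 2 genes within a library do not depend on how libraries are scaled, and 5 such log2 ratios were compared between the 4 SSM and 4 MSM libraries and between the 4 tdLN and 4 ndLN libraries, 10 tests in all. The two-sided exact permutation test over 70 regroupings cannot give a p below 0.0286, which becomes 0.0714 after Benjamini-Hochberg adjustment here, so no ratio passed 0.05 after adjustment. The regrouping treats the 8 libraries as independent and ignores pool, and the other of subset and node. Each side of 4 libraries came from the same 2 pools of mice. The ratio of Hk2 to Hk3 was higher in SSMs by 1.78, with 3.04 within ndLN and 0.51 within tdLN, that of Pfkl to Pfkp by 0.99, with 1.00 and 0.97, and that of Ldha to Ldhb differed by -3.05, with -2.84 and -3.26. Each of these 3 had the smallest p, and its SSM and MSM libraries did not overlap. Between the nodes, the ratio of Hk1 to Hk2 was higher in tdLN by 1.04, also without overlap (exact p 0.0286), with 1.67 within SSMs and 0.42 within MSMs. The ratio of Slc2a1 to Slc2a3 was higher in tdLN by 1.11 (exact p 0.0571), with 1.04 within SSMs and 1.17 within MSMs, and higher in SSMs by 1.07 (exact p 0.143).

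The genes around the members were read from 6 lists with 73 genes, of which 55 had a mean normalized count over 100. Between SSMs and MSMs in ndLN, 10 of them were called higher and 6 lower in SSMs, with a median log2 difference of -0.01 beside -0.06 for all 9985 genes over the cut-off. In tdLN 11 were called higher and 7 lower, with medians of 0.08 and 0.01. Within SSMs 3 were called higher and 1 lower in tdLN, and in MSMs 0 were called by edgeR.

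Among 18 other glycolytic enzymes, 2 were called higher and 4 lower in SSMs in ndLN, and 1 higher and 4 lower in tdLN. Ldhb was higher in SSMs by 2.57 ± 0.26 in ndLN and 2.68 ± 0.34 in tdLN, and Hk1 by 1.05 ± 0.16 in ndLN. Aldoc, an aldolase gene best known from brain, was lower by -3.85 ± 0.35 and -2.87 ± 0.35. Pfkp was lower by -1.08 ± 0.13 and -1.04 ± 0.13, and Eno2, the neuronal enolase gene, by -1.86 ± 0.32 in tdLN. Gapdh, often used as a reference gene, had 9410 and 8241 normalized counts in ndLN SSMs and 10850 and 10693 in tdLN SSMs. In MSMs it had 8600 and 8613 in ndLN and 11847 and 12828 in tdLN, and it was not called in any comparison. It was above its ndLN libraries in every tdLN library, with differences of 0.29 ± 0.12 in SSMs and 0.52 ± 0.12 in MSMs (adjusted p 0.207 and 0.160).

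Among 12 transporter genes, 6 were over the cut-off, and the called genes were 2 lactate and pyruvate carriers. Slc16a3, the gene of the lactate exporter MCT4, had 6255 and 3789 normalized counts in ndLN SSMs, 9335 and 7494 in tdLN SSMs and between 884 and 1464 in MSMs. The differences of SSMs from MSMs were 2.00 ± 0.26 in ndLN and 2.86 ± 0.26 in tdLN (adjusted p 0.00126 and 0.000414 by edgeR). Slc16a7, the gene of the carrier MCT2, was higher in SSMs by 1.60 ± 0.27 and 3.56 ± 0.28. Among 15 regulators of glycolysis and of pyruvate entry, Txnip, which limits glucose uptake, was higher in SSMs by 1.45 ± 0.22 in ndLN and 1.75 ± 0.23 in tdLN, and Pdha1, a subunit gene of pyruvate dehydrogenase, by 0.94 ± 0.15 and 0.97 ± 0.15. Pfkfb4 encodes an enzyme that makes and breaks down an activator of phosphofructokinase, and Pdk3 encodes a kinase that inhibits pyruvate dehydrogenase. Within SSMs both were called higher in tdLN, by 1.99 ± 0.19 and 1.45 ± 0.15, and in tdLN both were higher in SSMs than in MSMs, by 1.77 ± 0.19 and 0.93 ± 0.14. Pfkfb4 had 448 and 325 normalized counts in ndLN SSMs and 1560 and 1460 in tdLN SSMs.

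Of 7 pentose phosphate genes, the branch of glucose metabolism that makes NADPH, G6pdx was called higher in tdLN SSMs than in ndLN SSMs (0.88 ± 0.13) and than in tdLN MSMs (1.31 ± 0.13). Taldo1 was lower in SSMs by -1.79 ± 0.15 in ndLN and -1.23 ± 0.14 in tdLN. The 6 genes of this list over the cut-off all had a positive difference of tdLN from ndLN within SSMs, with a median of 0.65 beside 0.05 for all genes, and 1 of the 6 was called.

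Of 8 genes of the HIF pathway, Egln3 and Epas1 were called higher in SSMs in both nodes. Egln3 encodes a prolyl hydroxylase that marks HIF for degradation and is itself a HIF target, and Epas1 encodes HIF-2α. Egln3 had 1308 and 1765 normalized counts in ndLN SSMs, 494 and 510 in tdLN SSMs and between 14.8 and 59.6 in MSMs. Its differences of SSMs from MSMs were 4.73 ± 0.24 and 4.85 ± 0.31, and within SSMs it was lower in tdLN by -1.60 ± 0.19 (edgeR adjusted p 0.00331). Within MSMs Egln3 was lower in tdLN too, by -1.72 ± 0.43, which was not called (edgeR adjusted p 0.182). Its interaction was 0.12 ± 0.48. Hk2 was also lower in tdLN within SSMs, but its interaction was -1.62 ± 0.23. Epas1 was higher in SSMs by 4.51 ± 0.50 and 4.45 ± 0.63, with its MSM libraries between 2.31 and 27.7 normalized counts. Of 13 HIF target genes outside glycolysis, Vegfa, the main growth factor for blood vessels, was higher in SSMs by 2.62 ± 0.28 in ndLN and 2.13 ± 0.28 in tdLN, and the stress gene Ddit4 by 1.62 ± 0.27 in ndLN. Car9, a carbonic anhydrase gene, was lower by -2.71 ± 0.33 in ndLN, and Ndrg1 by -0.94 ± 0.16 in tdLN. The other genes of this list over the cut-off, 8 in ndLN and 9 in tdLN, were not called, and within SSMs none of the 11 was called between the nodes by edgeR.

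**Figure D4:**
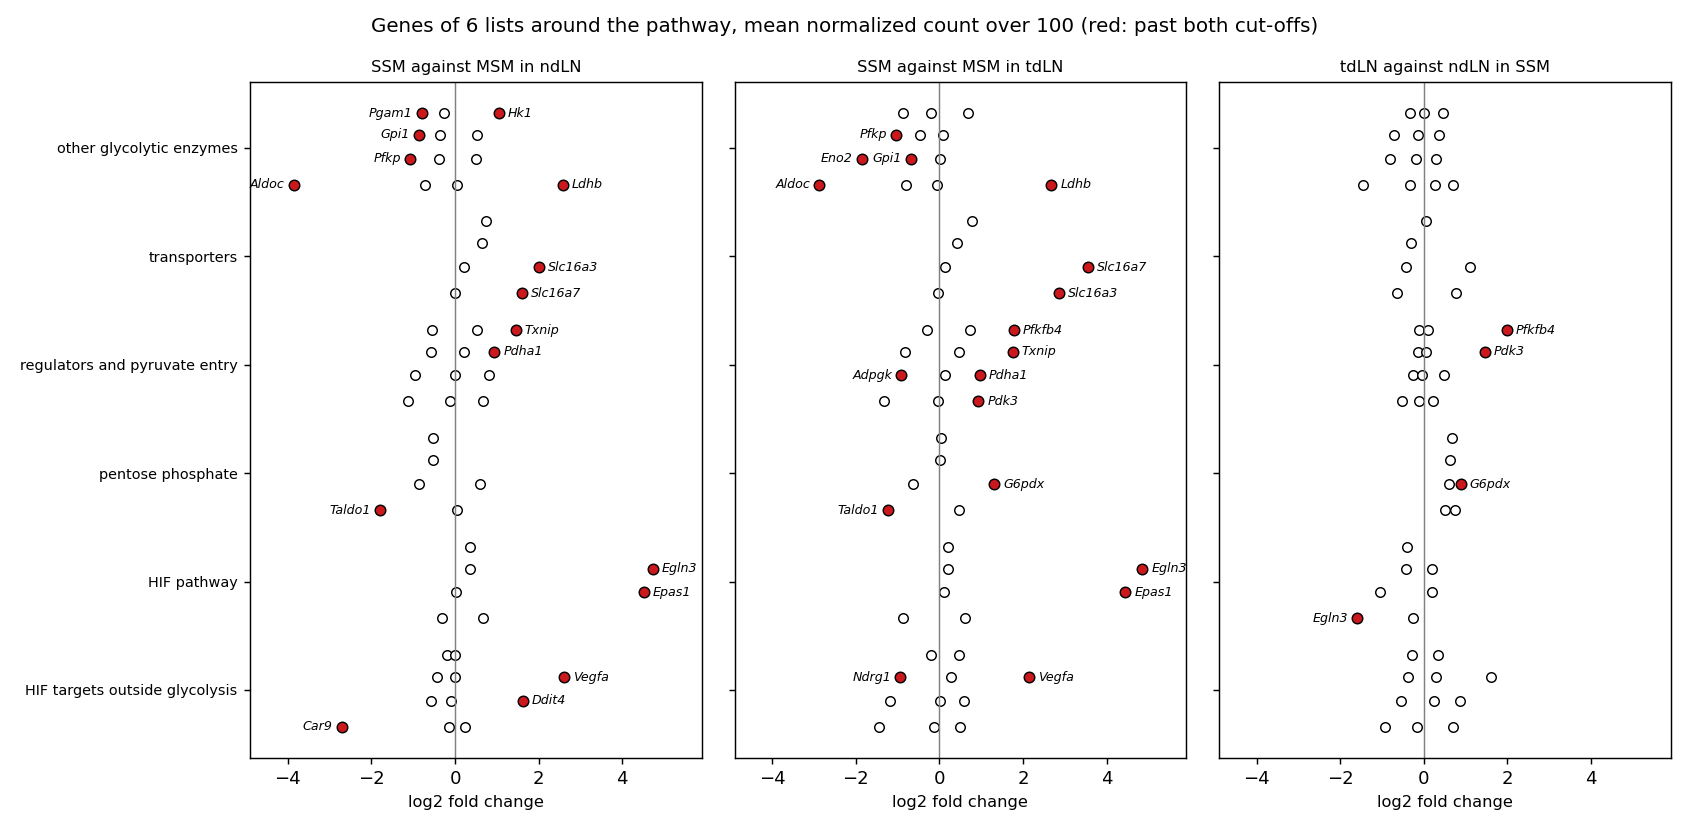
Fitted log2 fold changes (x axis) of the 55 genes with a mean normalized count over 100 in 6 lists around the pathway (y axis), for 3 comparisons. Each point is a gene and red points, with names, passed both cut-offs. Slc16a3, Slc16a7, Ldhb, Egln3, Epas1 and Vegfa were higher in SSMs in both nodes, and Pfkfb4, Pdk3 and G6pdx were higher in tdLN within SSMs.

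The members' patterns over the 8 libraries were set beside each other by Pearson's r of log2 CPM, as a description, since the libraries share subsets, nodes and pools. Slc2a1 and Hif1a were the most alike pair that Slc2a1 formed (r = 0.899), and Slc2a1 was least like Ldha (r = -0.945). Hk2 was most like Slc2a1 among the members (r = 0.742) and least like Pgk1 (r = -0.903), Eno1 was most like Slc2a1 (r = 0.838), and Ldha most like Pgk1 (r = 0.838). Over 9984 genes, the single gene most like Hk2 was Cx3cl1 (r = 0.996), that most like Slc2a1 was Tmem71 (0.991), that most like Slc2a3 was Rbm5 (0.987) and that most like Hif1a was Klf10 (0.981). For Eno1 it was Arhgef10l (0.992), for Pgk1 Ino80e (0.997), for Ldha Mrpl51 (0.978), for Pkm Stam2 (0.967), for Pfkl Rpap3 (0.980) and for Hk3 Mccc1 (0.971). With 8 libraries in 4 groups, many genes reach such values.

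Some members share sequence with other loci, which bears on their counts. Of all 50-base windows of its transcripts, Pgk1 shared 53.9%, almost all with Pgk1-rs7, which was not among the genes that passed the filter on low counts. Eno1 shared 26.0%, mostly with Eno1b at 1.26 CPM beside 499 CPM for Eno1, and Pkm shared 25.8%, in part with an overlapping gene at 4.40 CPM. Ldha shared 9.26% and Hif1a 5.74% with other loci, and the other 5 members shared at most 1.54%. Exons of other genes covered 15.3% of Pkm, 8.11% of Hif1a, 2.99% of Slc2a1 and 0.923% of Hk3, and the strand setting of the counting is not given in the sources used here. Hk2 and Pfkl had no such exon overlap.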

How the data were processed

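RNA of SSMs and MSMs was sequenced in 8 libraries of about 10000 sorted cells each, every library on lanes 3 and 4. The authors deposited raw read counts per gene for 16 samples, unfiltered and not normalized. Per the labels, the submitters' processing notes name bcl2fastq 2.20.0.422, Trimmomatic 0.36, STAR 2.5.3a and GRCm38; the annotation and strand setting are not given in the sources used here. All 16 columns were mapped to samples, with 0 unmapped. Gene IDs were matched to GENCODE M21 (55240 of 55421), and 2 rows that name no gene, with 6 counts, were left out of tests.

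Lanes were summed because their counts differed by no more than sampling noise (chi-square per degree of freedom 0.955 to 1.02), which left n = 2 pools of mice a group, as the labels number them. The paper's methods count 4 pooled samples as biological replicates, so the n used here is smaller. A floor of 3 counts equals 0.0623 to 0.0698 CPM and covers counting error only. Genes needed 10 counts in total and detection in 2 samples. edgeR 4.0.16 in R 4.3.3 was used with TMM factors of 0.902 to 1.15, its quasi-likelihood test, group and pool as terms, all 8 libraries and Benjamini-Hochberg adjustment over 21085 genes. Normalized counts were scaled to 1 lane. The pairing by pool comes from the node numbers in the labels, since each pool of mice gave all 4 groups. Deviations of same-numbered libraries were correlated by -0.146 to 0.163 over 10000 genes between pairs of groups. On simulated counts for SSMs against MSMs in ndLN over 21085 genes, 147 of 200 genes changed 4-fold and 16 of 200 changed 2-fold were recovered, with 2 and 6 false calls, and 0 genes were called without a change. At 2-fold, 6 of the 22 calls were thus false. The simulation changed no more than 200 genes and held no pool effect, whereas 2544 genes were called in the data. Its recoveries therefore need not carry over to the members.

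The members, lists and marker lists were chosen with earlier results of these data known. All members and Gapdh are named, with up to 4 called genes a list and comparison by size of the log2 fold change, and the gene most like each member. Of the marker lists, T cell (8 genes), natural killer (5) and monocyte (5) sums were higher and proliferation (7) lower in SSMs than in MSMs in each library, neutrophil (8) sums were at most 793 CPM and at least 106 CPM in SSMs and at most 30.6 CPM in MSMs, B cell (6) sums were at most 43.4 CPM, erythroid (4) sums at most 5.94 CPM, and the 4 gate markers summed to 1484 to 2933 CPM. Alternatives were DESeq2 1.42.0 (Wald test or size factors), other filters, no pool term, single lanes, only the groups compared, other cut-offs, a Holm adjustment, each library left out and, added after seeing the data, edgeR's legacy fit. Python 3.11.15 with numpy 2.4.6, pandas 2.3.3, scipy 1.17.1 and matplotlib 3.10.9 was used for ratios and figures. Promoter sequences are RefSeq's on GRCm38.p6, the same assembly build as the counts.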

Additional observations from a re-analysis of the deposited data

Results flagged for a closer look

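The node difference of Hk2 was flagged because it differed between the subsets by a test of the difference itself. The log2 difference of tdLN from ndLN was -1.86 in SSMs and -0.24 in MSMs, and the first minus the second was -1.62 ± 0.23 with an edgeR adjusted p of 0.0318, under 0.05 but above the threshold of 0.01 used for calls. By DESeq2 the same value was -1.65 with an adjusted p of 6.97e-08. With 2 libraries in a group, no single library could be tested as standing apart from the others.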

How the results depend on the processing

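With 2 libraries a group, counts of called members depended on the test's threshold and on single libraries. In the order SSMs against MSMs in ndLN, in tdLN, tdLN against ndLN in SSMs, in MSMs, and the interaction, the counts were 2, 3, 1, 0 and 0. All genes called in the same comparisons numbered 2544, 1831, 639, 5 and 8. A DESeq2 Wald test called 4, 6, 2, 1 and 2 members, with 3690, 3026, 1973, 503 and 706 genes, and an adjusted p under 0.05 gave 4, 5, 2, 0 and 1 members, with 3882, 3019, 1831, 93 and 215 genes. The Holm adjustment gave 0 members in all 5, with 207, 108, 7, 0 and 1 genes. Fitting only the groups compared gave 1 member in ndLN, 4 in tdLN and 0 in SSMs and MSMs, with 952, 1836, 0 and 0 genes. Without pool as a replicate block, 5 were called in tdLN, with Hk2 and Ldha added, and 3 in ndLN, with Slc2a1 added, and the other 3 counts were the same. With 1 library left out the counts ran from 1 to 2 in ndLN, 0 to 3 in tdLN and 0 to 1 in SSMs, and a group left with 1 library was assumed to vary like the others. The cause of these shifts was not tested beyond the fewer samples in the last setting. Size factors, filters, single lanes, the mean cut-off and the legacy fit moved no count by more than 1.5 times, though filterByExpr and lane 3 alone each added Slc2a1 in ndLN. Of 728 log2 fold changes of members under the alternatives, 682 kept direction and side of the threshold, and the 12 that reversed were small. Pfkl against MSMs in ndLN was 0.00011 with only the groups compared and -0.36 to 0.21 with a library left out, Slc2a3 -0.52 to 0.20 and Pkm -0.018 to 0.28 there. Slc2a1 between the nodes in SSMs was -0.034 by DESeq2 (size factors or Wald test) and -0.037 to 0.070 with a library left out, and Pfkl was -0.30 to 0.26 between the nodes in SSMs and -0.18 to 0.15 in MSMs. All 90 ratio results under alternatives kept their direction and side. All members had at least 393 normalized counts in every library.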
